A study of Mus musculus with 11 samples.

Results

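The solute carrier (Slc) superfamily was examined in mouse RAW cells, a macrophage-type line, with and without GIV depletion and lipopolysaccharide (LPS). Members were chosen by name and by level: symbols beginning with Slc and a family number, no pseudogene suffix, and log2(TPM + 1) of at least 2, which is 3 TPM, in at least 2 libraries. TPM is a level per unit of transcript length. The selection leaves out 10 transporter genes by symbol, 9 of which pass the level. It kept 168 of the 52143 rows of the table, which are 165 genes, because 3 genes (Slc26a6, Slc30a4 and Slc25a32) sit on a pair of rows with identical values and were counted once. The table holds 375 distinct Slc symbols, of which 201 lay below the level and 51 were listed at 0 in all 9 libraries used. Just inside the level were Slc25a35, Slc7a4 and Slc26a11, whose second-highest library was at 3.06, 3.07 and 3.14 TPM. Just outside were Slc25a42, Slc30a1 and Slc9b2, at 2.96, 2.93 and 2.88 TPM. Of the members, 127 passed the level in all 9 libraries, 26 only in libraries without LPS and 2 (Slc28a2 and Slc39a2) only in libraries with LPS. Counted by the 2 libraries that the rule asks for, 29 members, the 26 among them, had fewer than 2 past the level with LPS. Only 2 members had fewer than 2 past the level without LPS. All of these passed through the condition in which they were high, so their difference between the conditions was partly fixed by the selection. The 26 include Slc5a3, Slc16a12, Slc16a7, Slc2a8, Slc5a6, Slc19a2, Slc9a5, Slc12a2, Slc29a2, Slc17a9 and Slc46a1, whose LPS falls are given below. These genes are also in the counts of members called lower with LPS in both lines.

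GIV, or Girdin, is an actin-binding modulator of G proteins encoded by Ccdc88a. Both lines carried a short hairpin RNA: control cells a control hairpin (shC) and depleted cells a hairpin against GIV (shGIV). Each line was sampled untreated (0 h) or following exposure to LPS (100 ng/ml) for 5 h. The groups were control cells without LPS (n = 2, replicates 1 and 3), control cells with LPS (n = 1, replicate 2), depleted cells without LPS (n = 3) and depleted cells with LPS (n = 3). The labels do not say how many clones or hairpin sequences a line represents, nor whether replicates were separate cultures, so p-values measure only how far these samples spread. The control sample given LPS that is numbered replicate 3 was not analysed here, and the lone control library with LPS is assumed in every test to vary like the other groups.

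Replicate 2 of the control cells without LPS is left out by the selection rule. In that library the microRNA gene Mir6236 took 57.8% of the TPM, against 3.79% to 8.78% elsewhere, and the members took 0.106%, against 0.435% to 0.647%. Every member lay below both other control libraries there, with a median log2 difference of -1.9956 from their mean. Values with it added are given beside each comparison. Ccdc88a was at 10.0 and 7.69 TPM in the 2 control libraries without LPS and at 6.93, 5.31 and 5.58 TPM in depleted cells. After LPS the control library gave 5.77 TPM and the depleted libraries gave 3.08, 2.62 and 3.39 TPM. The log2 differences of -0.50 ± 0.15 (SE, limma adjusted p = 0.232) and -0.75 ± 0.19 (adjusted p = 0.0681) missed the threshold over all genes. Of 9 macrophage markers 8 were over 1 TPM in every library, while Mertk did not exceed 0.07 TPM. Their summed level was 19000 to 19400 and 17800 to 18300 TPM in control and depleted cells without LPS, and 14300 and 11900 to 12400 TPM with LPS. Summed markers of fibroblasts, T, B, epithelial, endothelial and erythroid cells stayed at or below 2.28 TPM, and the neutrophil list reached 17.3 TPM with LPS through S100a8, against at most 3.95 TPM without. The part of these markers in the results was not tested, and fewer cells of a type and less RNA per cell cannot be told apart in such bulk samples.

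Solute carriers are membrane proteins that move amino acids, sugars, ions, metals, vitamins, nucleotides and organic acids across the plasma membrane and organelle membranes, by facilitated diffusion, by exchange, or by coupling to sodium or proton gradients. Families are numbered by sequence, and members of a family can differ in substrate and in the membrane they sit in. In macrophages, transporters of arginine, glucose, lactate and iron are known for their part in activation, and the genes of that kind most often studied are those left out here. LPS is the bacterial cell wall component sensed by Toll-like receptor 4.

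The bases before the annotated start are shown for 4 genes, so that the letters upstream of rising and falling genes can be compared. They are the largest rises (Slc28a2, Slc6a4) and falls (Slc5a3, Slc43a2) called in both lines with a promoter in the RefSeq set used here. Slc15a3 and Slc39a14 are named only. Each run is the 250 bases upstream of the RefSeq start on GRCm38.p6, 5′ to 3′ on the gene's strand, with matches to the motifs searched in capitals.
Slc28a2 chr2:122426185-122426434 (+): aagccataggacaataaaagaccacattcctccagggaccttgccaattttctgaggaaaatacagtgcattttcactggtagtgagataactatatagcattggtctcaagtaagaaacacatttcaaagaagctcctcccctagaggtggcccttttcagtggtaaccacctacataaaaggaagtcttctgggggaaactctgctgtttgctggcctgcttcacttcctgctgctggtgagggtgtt
Slc6a4 chr11:76998347-76998596 (+): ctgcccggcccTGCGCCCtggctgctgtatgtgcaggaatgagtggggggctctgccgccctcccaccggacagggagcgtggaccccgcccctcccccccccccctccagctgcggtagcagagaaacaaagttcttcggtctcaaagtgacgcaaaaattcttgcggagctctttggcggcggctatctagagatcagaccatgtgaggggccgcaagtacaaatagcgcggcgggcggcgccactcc
Slc5a3 chr16:92058072-92058321 (+): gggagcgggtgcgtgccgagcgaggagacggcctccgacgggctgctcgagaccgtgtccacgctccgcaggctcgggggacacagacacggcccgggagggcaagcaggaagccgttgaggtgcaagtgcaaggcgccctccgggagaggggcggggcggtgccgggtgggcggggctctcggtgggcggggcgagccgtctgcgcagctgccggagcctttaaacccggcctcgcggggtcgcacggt
Slc43a2 chr11:75531444-75531693 (+): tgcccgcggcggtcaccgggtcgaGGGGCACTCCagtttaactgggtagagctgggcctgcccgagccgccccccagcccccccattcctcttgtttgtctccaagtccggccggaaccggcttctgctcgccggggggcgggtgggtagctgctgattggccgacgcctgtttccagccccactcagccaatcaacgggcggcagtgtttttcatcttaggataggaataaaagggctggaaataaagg
Slc28a2 and Slc6a4 rose with LPS, and Slc5a3 and Slc43a2 fell. The motifs were an NF-kB site, an interferon-stimulated response element type, the AP-1 site TGANTCA, the metal-response cores TGCACNC and TGCGCNC, the amino-acid-response type TGATGNAA and the E-box CACGTG, each on both strands of 300 bases that end 50 bases after the start. The capitals in Slc43a2 mark an NF-kB match at -226 from the start, and those in Slc6a4 a TGCGCNC match at -239. The windows of Slc28a2 and Slc5a3 held none. That of Slc16a12, the next fall in size, is not printed and held a CACGTG match at -240. The RefSeq promoter set used here held a promoter for 127 of the 165 members and 27025 in all. An NF-kB match was in 8 of the members' promoters and in 4.35% of all promoters. It was in 1 of the 15 promoters of members that rose in both lines (Slc39a1) and in 6 of the 71 of members that fell in both. TGCGCNC was in 24.4% of the members' promoters and 15.5% of all, and CACGTG in 15% and 7.24%. The shares of TGCGCNC in the rising and falling members were 26.7% and 25.4%, so these letters were about as frequent in both sets. The interferon-type motif was in 1.57% of members' promoters and 3.49% of all, TGANTCA in 7.09% and 7.93%, TGCACNC in 14.2% and 12.4%, and TGATGNAA in 1.57% and 4.06%. A match is only a run of letters in this window.

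By mean level over the 9 libraries, the mitochondrial ADP/ATP exchanger Slc25a5 was the most abundant member at 702 TPM. The mitochondrial phosphate carrier Slc25a3 followed at 291 TPM, then the betaine and GABA transporter Slc6a12 at 210 TPM, and then, at 151 TPM, Slc3a2, the heavy chain that carries several amino acid exchangers to the membrane. The other most abundant members of their substrate class were the fatty acid transport protein Slc27a1 (124 TPM), the zinc importer Slc39a1 (116 TPM), Slc35a4 of the nucleotide sugar family (112 TPM), the phosphate transporter Slc20a1 (79.0 TPM), the sugar transporter Slc50a1 (57.7 TPM) and the nucleoside transporter Slc29a1 (55.8 TPM). The 10 most abundant members held 39.1% to 42.1% of the members' TPM in the 9 libraries. The 4 members Slc9a3r1, Slc9a3r2, Slc7a6os and Slc4a1ap carry the name but encode no transporter.

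After 5 h of LPS far more solute carrier transcripts fell than rose as a share of the transcriptome, and a few rose by large factors. In control cells 22 of the 165 members were called higher and 96 lower, with a median log2 change of -0.55. In depleted cells 20 were called higher and 126 lower, with a median of -0.81. Called means a limma adjusted p under 0.05, with p-values adjusted by Benjamini-Hochberg over the 13711 genes tested. The members' shares in control cells were 13.3% higher and 58.2% lower. Among all genes tested 14.8% were called higher and 44.1% lower in control cells, and among the 11403 genes that pass the members' level rule 16.0% and 48.8%. In depleted cells the members' shares were 12.1% and 76.4%, those of all genes tested 15.8% and 59.7%, and those of genes past the level rule 16.5% and 64.7%. The rising share thus lay just under the background and the falling share over it in both lines.

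The median of all genes tested itself moved by -0.40 in control and -0.54 in depleted cells, so the member medians lay 0.15 and 0.27 below it on the log2 scale (-0.15 and -0.27). TMM scaling, computed from TPM, gave 39 higher and 70 lower in control cells and 42 higher and 85 lower in depleted cells, and quantile normalization 38 and 76, and 43 and 85. With only the groups compared, 12 were called higher and 32 lower in control cells. With control replicate 2 without LPS added, 4 were called higher and 1 lower in control cells, and 9 and 28 in depleted cells. Over all genes, 8075 were called in control cells in the main fit, 7237 with TMM scaling, 2859 with only the groups compared and 481 with that replicate added. In depleted cells 10349 of all genes were called in the main fit, 9191 with TMM scaling and 2236 with that replicate added. The 18 members higher in both lines were 81.8% of the 22 and 90% of the 20, and all 18 were called under the 3 other scalings too. Among all genes tested the genes called higher in both lines were 87.5% and 82.0% of those called in control and in depleted cells. The 94 lower in both were 97.9% of the 96 and 74.6% of the 126, and 61 of them were called under the 3 other scalings. The matching shares of all genes tested were 97.3% and 71.9%, so the members' overlap lay near that of other genes in both directions. The responses of the lines were measured in separate libraries, and 14 members were called in neither.

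**Figure D1:**
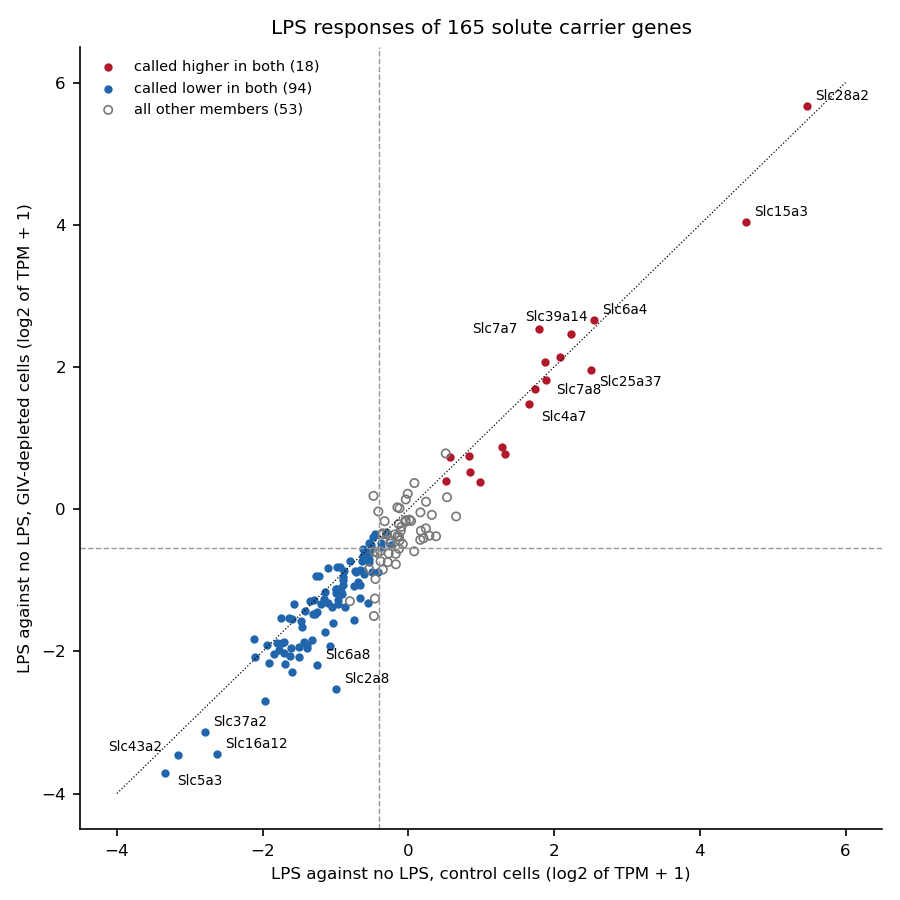
LPS change of the 165 members in control cells (horizontal axis) and depleted cells (vertical axis), both as a log2 difference of TPM + 1. Dashed lines are the medians of all genes tested (-0.40 and -0.54) and the dotted line marks equal change. The 18 members called higher in both lines reach 5.47 and 5.67 at Slc28a2, and the 94 called lower in both reach -3.34 and -3.71 at Slc5a3.

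Substrate classes were assigned by family number, so the counts include the 4 members that encode no transporter. Slc7a6os is 1 of the 6 higher genes of the amino acid class in control cells, and Slc9a3r1 1 of the 5 higher genes of the ion class in depleted cells. Slc9a3r2 was called lower in both lines and Slc4a1ap in depleted cells. Amino acid, peptide and osmolyte carriers gave 6 higher and 15 lower of 27 in control cells and 5 and 20 in depleted cells. Inorganic ion and pH carriers gave 5 higher and 7 lower of 23, and 5 and 17. Metal carriers gave 6 and 8 of 20, and 6 and 12. Mitochondrial carriers gave 3 and 22 of 35, and 3 and 26. Nucleoside, vitamin, choline and haem carriers gave 2 and 9 of 12, and 1 and 9. In 3 classes no member was called higher in either line. These were the sugar, polyol and sodium-coupled vitamin carriers (7 lower of 7, and 6), the nucleotide sugar and Golgi or endoplasmic reticulum carriers (16 lower of 25, and 20) and the carboxylate, organic ion and fatty acid carriers (12 lower of 16, and 16). Beside these class counts stand 14.8% higher and 44.1% lower of all genes tested in control cells, and 15.8% and 59.7% in depleted cells. At such shares classes of 7 to 25 members hold few rises, and whether their lack is particular to them was not tested. Over the 4 scalings the number called higher in control cells was 0 for the sugar class, 0 to 2 for the nucleotide sugar class and 0 to 1 for the carboxylate class, and in depleted cells 0 to 1, 0 to 5 and 0. The class medians in control cells ran from -1.02 (nucleosides and vitamins) to -0.15 (inorganic ions). The medians of inorganic ion and metal carriers turned positive under another scaling, to 0.23 and 0.06 in control cells and to 0.13 and 0.06 in depleted cells.

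**Figure D2:**
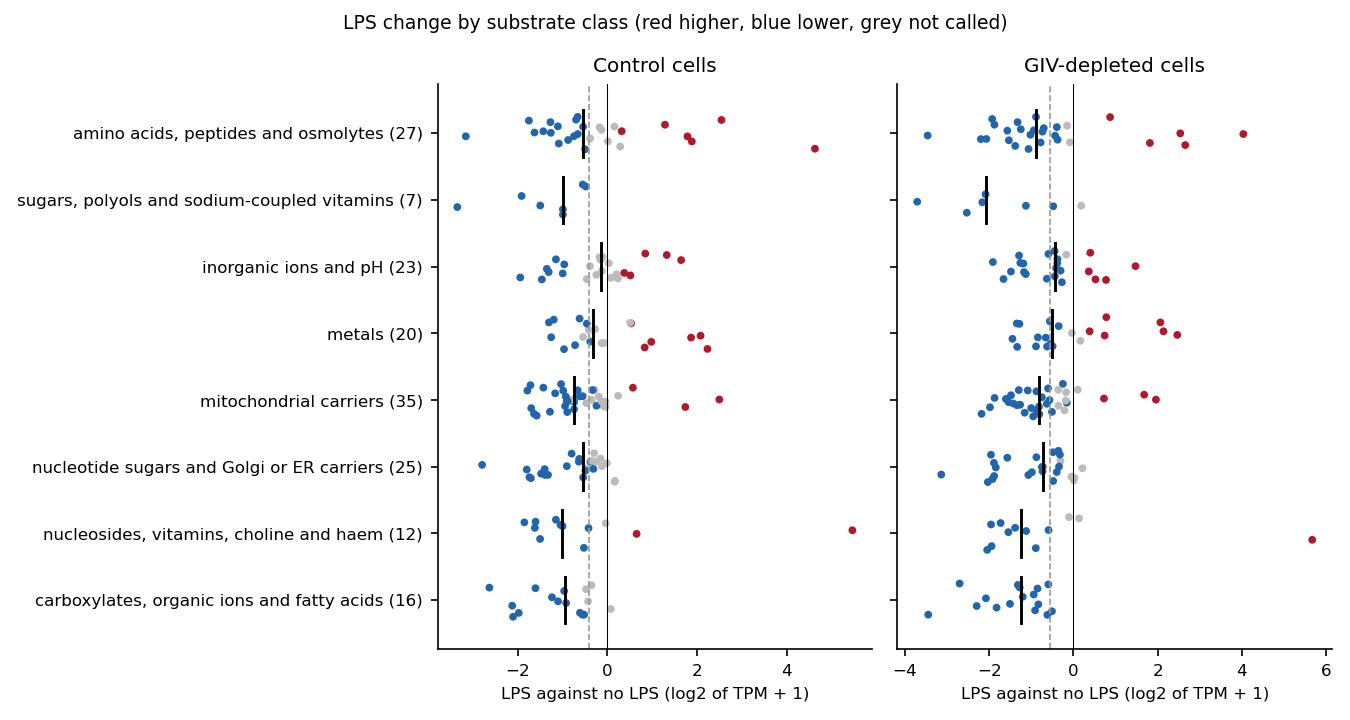
LPS change (horizontal axis, log2 of TPM + 1) of each member by substrate class, in control cells (left) and depleted cells (right), with the class size in brackets. Points are genes, red if called higher, blue if called lower and grey if not called, thick bars are class medians and dashed lines the medians of all genes tested. Red points are missing from the sugar, nucleotide sugar and carboxylate classes in both panels. Of all genes tested 14.8% were called higher in control and 15.8% in depleted cells.

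The largest rise belonged to Slc28a2, a sodium-coupled purine nucleoside transporter (chromosome 2, 122426477 to 122461137, GENCODE M21 on GRCm38). Slc28a2 passed the level only with LPS, so its rise was partly fixed by the selection. It was at 1.58 and 1.47 TPM in control cells and at 0.750, 0.727 and 0.576 TPM in depleted cells without LPS. LPS brought it to 111 TPM in the control library, and depleted libraries then held 87.4, 88.6 and 78.7 TPM. The groups with and without LPS stood far apart, with mean TPM 72.7 times higher in control and 124 times higher in depleted cells. The log2 changes came to 5.47 ± 0.12 (SE, limma adjusted p = 5.88e-08) and 5.67 ± 0.08 (adjusted p = 2.27e-09). The nucleoside transporters of the equilibrative family went the other way. Slc29a1 fell from 76.4 and 78.0 TPM to 26.7 TPM in control cells and from 83.9, 88.8 and 83.7 TPM to 20.8, 22.3 and 21.4 TPM in depleted cells (log2 -1.50 and -1.94). Slc29a2 fell by a like amount (-1.61 and -1.95), while the lysosomal relative Slc29a3 was called in neither line (-0.04 and 0.14).

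Slc15a3, a lysosomal transporter of histidine and small peptides such as muramyl dipeptide (chromosome 19, 10839727 to 10859362), had the second-largest rise. Its level was 12.2 and 15.02 TPM in control and 16.2, 14.3 and 12.9 TPM in depleted cells without LPS. After LPS the control library held 360 TPM and the depleted libraries 251, 268 and 237 TPM, which made it the fifth most abundant member by mean level. The log2 changes came to 4.63 ± 0.16 (SE, limma adjusted p = 3.88e-07) and 4.04 ± 0.10 (adjusted p = 3.08e-08). Its close relative Slc15a4, which carries similar substrates in the same compartment, fell from 20.4 and 25.96 TPM to 10.2 TPM in control cells (log2 -1.10, limma adjusted p = 0.000817) and by 1.32 in depleted cells.

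Among amino acid carriers the rising members included a heavy chain and 2 of its partners. Slc3a2 went from 100 and 115 TPM to 263 TPM in control cells and from 101, 105 and 105 TPM to 184, 207 and 183 TPM in depleted cells (log2 1.29 and 0.87). Slc7a7, which exchanges cationic for neutral amino acids, went from 10.9 and 12.6 TPM to 43.05 TPM in control cells and from 7.83, 8.78 and 8.92 TPM to 50.7, 56.9 and 55.1 TPM in depleted cells. Its log2 changes came to 1.79 ± 0.12 (SE, limma adjusted p = 1.31e-05) and 2.54 ± 0.08 (adjusted p = 9.06e-08). Slc7a8, an exchanger of neutral amino acids, rose 3.81-fold and 3.87-fold in mean TPM, from levels that differed between the lines, as described under depletion. Slc7a6, which has the same exchange activity as Slc7a7, moved by -0.66 and -1.25 and was called lower in both lines, a call lost in control cells with TMM scaling. Slc7a5, another light chain of the same complex, was not called in control cells (-0.13) and was called lower in depleted cells (-0.39), a value that turned to 0.18 with TMM scaling and 0.04 with quantile normalization.

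The serotonin transporter Slc6a4 (chromosome 11, 76998603 to 77032340) rose from 3.31 and 3.21 TPM to 23.9 TPM in control cells and from 5.56, 5.35 and 5.85 TPM to 38.99, 42.6 and 40.0 TPM in depleted cells. The log2 changes came to 2.55 ± 0.10 (SE, limma adjusted p = 6.96e-07) and 2.66 ± 0.06 (adjusted p = 2.3e-08). All 5 other members of its family were called lower in both lines, although Slc6a9 lost its call in depleted cells with quantile normalization. Slc6a12 fell from 243 and 269 TPM to 120 TPM in control cells and from 341, 318 and 339 TPM to 90.3, 91.9 and 78.8 TPM in depleted cells (log2 -1.08 and -1.93). The taurine transporter Slc6a6 fell by 1.43 and 1.87, and the creatine transporter Slc6a8 by 1.26 and 2.19. The largest fall among amino acid carriers was that of Slc43a2, which lets large neutral amino acids pass by facilitated diffusion (chromosome 11, 75531694 to 75577575). It was at 40.1 and 48.8 TPM in control and 45.9, 51.99 and 47.6 TPM in depleted cells without LPS, and at 4.08 TPM and 3.43, 3.23 and 3.83 TPM with it. The log2 changes came to -3.16 ± 0.14 (SE, limma adjusted p = 1.69e-06) and -3.46 ± 0.10 (adjusted p = 4.2e-08), with no overlap of groups.

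**Figure D3:**
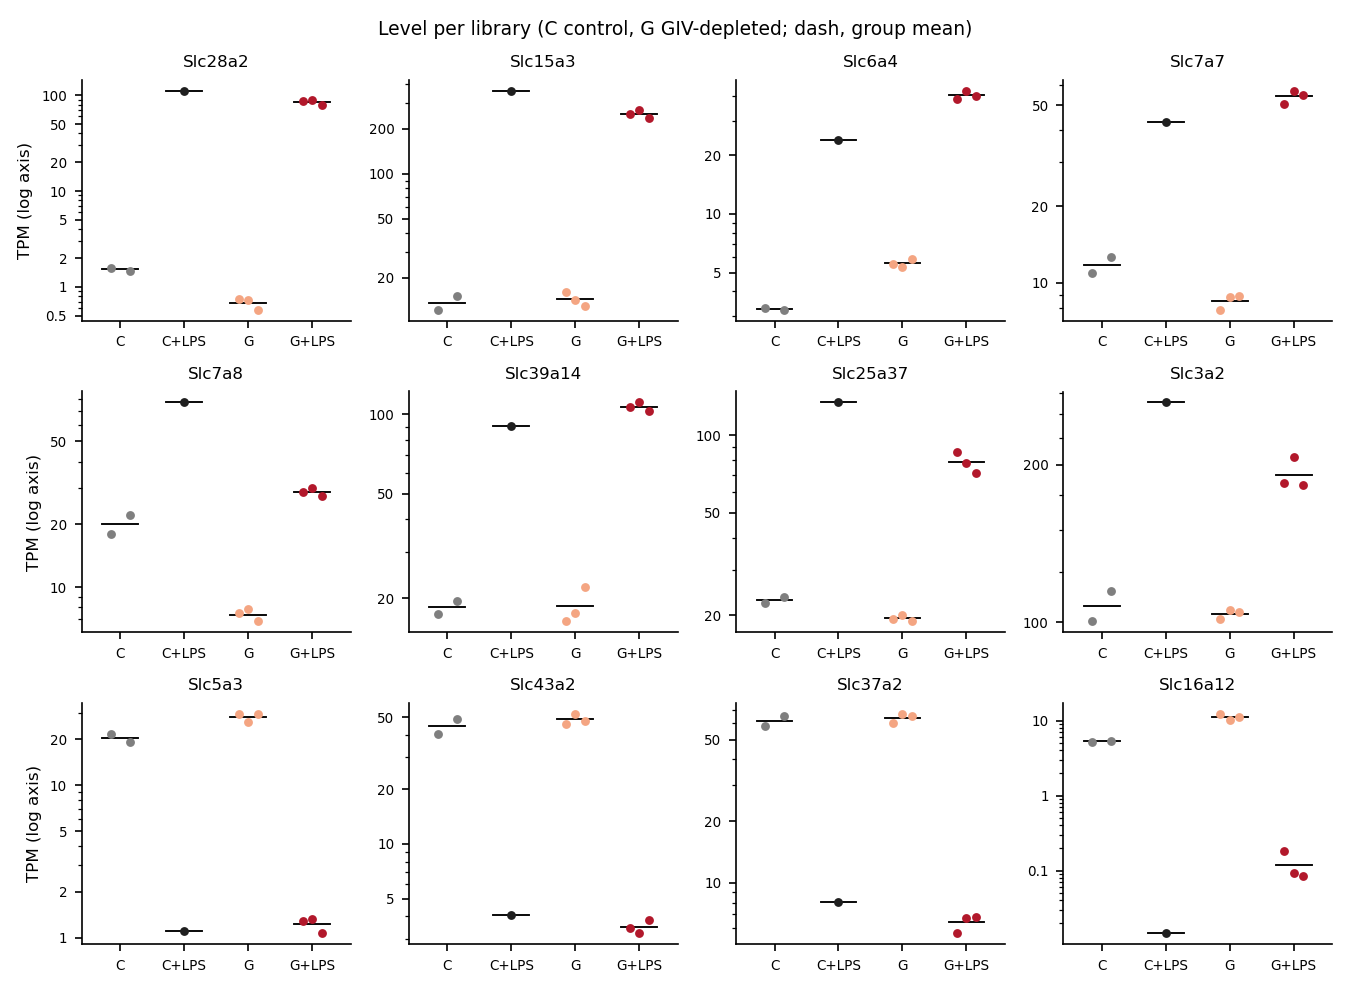
Level of 12 members in each library, in TPM on a log axis, for control cells (C, n = 2; C+LPS, n = 1) and GIV-depleted cells (G and G+LPS, n = 3 each). Points are libraries and dashes group means. The first 8 genes are higher and the last 4 lower with LPS in every library of either line, and Slc7a8 is lower in depleted cells at both times.

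Metal carriers held some of the clearest rises. Slc39a14, an importer of zinc and non-transferrin-bound iron, went from 17.4 and 19.6 TPM to 90.7 TPM in control cells and from 16.3, 17.5 and 22 TPM to 107, 111 and 103 TPM in depleted cells. Its log2 changes came to 2.24 ± 0.16 (SE, limma adjusted p = 1.69e-05) and 2.47 ± 0.11 (adjusted p = 4.04e-07). The zinc importer Slc39a2 rose from 1.31 and 1.90 TPM to 8.47 TPM and from 1.45, 1.12 and 1.25 TPM to 7.72, 9.86 and 8.11 TPM. Slc39a1 rose from 84.2 and 94.1 TPM to 159 TPM in control cells (log2 0.83) and by 0.74 in depleted cells. Both copper transporters rose: Slc31a2, of endosomes and lysosomes, by 2.08 and 2.14, and the plasma membrane importer Slc31a1 by 0.98 and 0.39. Zinc carriers of the secretory pathway went in both directions. Slc39a13 fell by 1.30 and 1.28, and Slc30a5 by 1.25 and 1.45. Slc30a6 was called higher in control cells (0.53, against 0.17 in depleted cells), and Slc30a7 in depleted cells (0.78, against 0.51 in control cells). For neither gene was the difference between the lines past the threshold.

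In the mitochondrial family 3 members rose in both lines. Slc25a37, the mitochondrial iron importer mitoferrin-1, was at 22.4 and 23.5 TPM in control and 19.4 ± 0.561 TPM (SD, n = 3) in depleted cells without LPS. LPS-treated libraries held 134 TPM (control) and 86.2, 78.1 and 71.6 TPM (depleted), log2 changes of 2.50 ± 0.11 (SE, limma adjusted p = 1.53e-06) and 1.96 ± 0.07 (adjusted p = 1.99e-07). Its paralogue Slc25a28, mitoferrin-2, was not called in control cells (-0.09) and moved by -0.25 in depleted cells, a call that reversed to 0.32 with TMM scaling and 0.24 with quantile normalization. The glutamate carrier Slc25a22 rose by 1.74 and 1.68. The aspartate-glutamate exchanger Slc25a12 rose by 0.57 and 0.73, and its paralogue Slc25a13 fell by 1.16 and 1.26. The most abundant member, Slc25a5, went from 779 and 803 TPM to 541 TPM in control cells and from 838, 880 and 830 TPM to 550, 568 and 530 TPM in depleted cells (log2 -0.55 and -0.63), but that call was lost with TMM scaling in both lines. Larger falls in this family were those of the dicarboxylate carrier Slc25a10 (-1.78 and -1.98), of Slc25a45 (-1.70 and -2.18) and of the calcium-regulated ATP-Mg and phosphate carrier Slc25a23 (-1.71 and -1.87).

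Ion and pH carriers were split. The sodium-phosphate cotransporter Slc20a1 rose from 55.4 and 63.4 TPM to 150 TPM in control cells and from 54.4, 52.5 and 55.0 TPM to 95.3, 95.0 and 89.3 TPM in depleted cells (log2 1.33 and 0.78). Its paralogue Slc20a2 fell by 0.99 and 1.19. The sodium-bicarbonate cotransporter Slc4a7 rose by 1.65 and 1.48, and smaller rises were those of the potassium-chloride cotransporter Slc12a4 (0.85 and 0.53) and the endomembrane sodium-proton exchanger Slc9a8 (0.52 and 0.40). Slc12a2, which brings sodium, potassium and chloride into cells, fell by 1.46 and 1.66, and the sodium-proton exchanger Slc9a5 by 1.94 and 1.91. Slc9a4, a further sodium-proton exchanger, was the single member called in opposite directions, 0.38 in control and -0.38 in depleted cells, and the depleted value turned to 0.16 with TMM scaling and to a call of 0.24 with quantile normalization.

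The largest fall of any member was that of Slc5a3, the sodium-coupled myo-inositol transporter (chromosome 16, 92058322 to 92087473). Slc5a3 passed the level only without LPS, so its fall was partly fixed by the selection. It was at 21.8 and 19.2 TPM in control and at 29.1, 25.8 and 29.4 TPM in depleted cells without LPS, and at 1.11 TPM and 1.28, 1.33 and 1.07 TPM with LPS. Mean TPM was 18.4 times lower in control and 22.9 times lower in depleted cells, log2 changes of -3.34 ± 0.13 (SE, limma adjusted p = 9.13e-07) and -3.71 ± 0.09 (adjusted p = 2.3e-08). Slc5a6, which takes up biotin and pantothenate, fell by 1.91 and 2.16. Slc37a2, a sugar-phosphate exchanger of the endoplasmic reticulum, fell from 58.2 and 64.9 TPM to 8.02 TPM and from 60.0, 66.8 and 65.0 TPM to 5.68, 6.75 and 6.78 TPM (log2 -2.79 and -3.14). In the nucleotide sugar family Slc35b2, the Golgi carrier of the sulfate donor, fell by 1.39 and 1.96, Slc35b4 by 1.70 and 2.03 and Slc35c2 by 1.74 and 1.88.

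Of the monocarboxylate family all 5 members were called lower in both lines, but Slc16a10 lost its call in control cells with TMM scaling and without control replicate 3, and Slc16a13 lost its call in depleted cells with TMM scaling and quantile normalization. Slc16a12, a creatine transporter (chromosome 19, 34668403 to 34747289), was at 5.21 and 5.35 TPM in control and 12.3, 10.3 and 11.0 TPM in depleted cells without LPS. After LPS only 0.0147 TPM was left in the control library, against 0.180, 0.0919 and 0.0854 TPM in depleted libraries (log2 -2.63 and -3.44), levels close to 0 in both lines. Slc16a12 passed the level only without LPS, so its fall was partly fixed by the selection. Slc16a6, a ketone body transporter, fell by 2.12 and 1.82, and Slc16a7, a monocarboxylate transporter, by 1.97 and 2.70. Slc17a5, the sialic acid exporter of lysosomes, fell by 2.10 and 2.07, and Slc17a9, the vesicular nucleotide transporter, by 1.60 and 2.29. Vitamin carriers fell as well: Slc19a2 for thiamine by 1.85 and 2.04, Slc19a1 for folate by 1.15 and 1.73, and the proton-coupled folate carrier Slc46a1 by 1.60 and 1.54. The vitamin C transporter Slc23a2 differed from these, with 38.04 and 38.2 TPM without and 60.6 TPM with LPS in control cells (log2 0.66 ± 0.12, SE, limma adjusted p = 0.00189) and no call in depleted cells (-0.10 ± 0.08, adjusted p = 0.26).

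Members of some families differed in direction; the paralogues set beside the leading genes here were chosen after their values were seen. Of 40 families with a member, 30 had at least 2, and in 8 of them (Slc6, Slc7, Slc9, Slc12, Slc15, Slc20, Slc25 and Slc39) at least 1 member was called higher and 1 lower in both lines. In 28 families none was called higher in both, where 18 of the 165 members were in all. No matching count was made for other gene families.

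**Figure D4:**
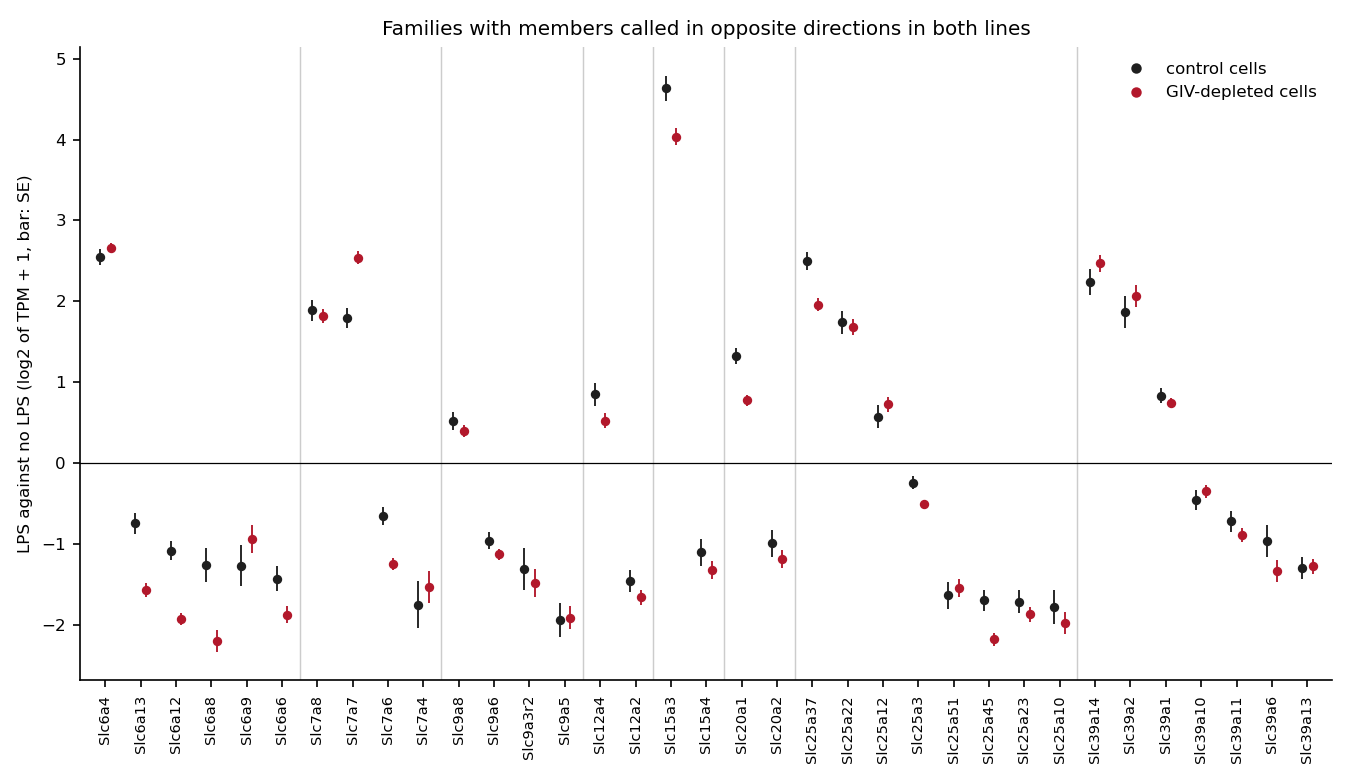
LPS change (vertical axis, log2 of TPM + 1, with its standard error) of members called in both lines, for the 8 families that hold members called in each direction, separated by grey lines. Black points are control cells and red points depleted cells, and for Slc25 only the 3 risers, the smallest fall and the 4 largest falls in control cells are drawn. Within each family the points lie on both sides of 0, as for Slc15a3 (4.63 and 4.04) and Slc15a4 (-1.10 and -1.32).

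Other membrane transporters were counted from lists drawn up by symbol. Of all genes tested 14.8% were called higher and 44.1% lower in control cells, and 15.8% and 59.7% in depleted cells. Of 24 ABC transporters tested, which pump by ATP hydrolysis, 3 were called higher and 16 lower in control cells and 2 and 20 in depleted cells. Their medians, taken from those of all genes, were -0.41 and -0.48. Of 20 P-type ATPase pumps 5 were higher and 9 lower, and 5 and 11, with medians 0.20 and 0.04 above those of all genes. Of 37 solute-carrier-fold transporters with other symbols 2 were higher and 25 lower, and 2 and 30 (medians -0.28 and -0.32 from all genes). Among these the organic anion transporter Slco4a1 fell from 260 and 306 TPM to 69.4 TPM in control cells and from 294, 332 and 341 TPM to 52.8, 59.8 and 48.2 TPM in depleted cells (log2 -2.01 and -2.57). Of 3 accessory subunits tested, Atraid, which supports a lysosomal carrier, fell by 1.76 and 2.20, and Ostm1 by 1.14 and 1.30. The most abundant of them, Bsg, at 295.5 and 329.4 TPM in control cells without LPS, was not called in control cells. It was called lower by only 0.23 in depleted cells.

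Comparing depleted with control cells asks which carriers differ between the lines. Ccdc88a itself was not called at either time, and whether a difference depends on GIV was not tested. Without LPS 5 members were called: Slc6a4 and Slc16a12 higher, and Slc7a8, Slc28a2 and Slc17a5 lower in depleted cells. That is 1.21% higher and 1.82% lower. Among all genes tested 0.489% were higher and 0.729% lower, and among genes past the level rule 0.552% and 0.824%. The member median was 0.03, against 0.02 for all genes. In the main fit 167 of all genes were called. With the left-out control library added no member and 0 of all genes were called, and the value of Slc17a5 turned to 0.29. Leaving out one further library left 0 to 2 higher and 1 to 3 lower, and 1 of the 5, Slc7a8, was called in each of these fits. With only the groups compared no member was called, Slc7a8 included, and 16 of all genes were. Without control replicate 1 the counts were 1 and 1, and without control replicate 3 they were 0 and 1. Without depleted replicate 1 or 2 of the cells without LPS the counts were 2 and 1, and without replicate 3 of those cells 1 and 1.

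Slc7a8 (chromosome 14, 54722209 to 54781946) was at 18.1 and 22.2 TPM in control cells and at 7.47, 7.81 and 6.84 TPM in depleted cells without LPS, with no overlap. Mean TPM was 2.73 times lower, a log2 difference of -1.33 ± 0.10 (SE, limma adjusted p = 0.00278). In LPS-treated cells the control library held 76.8 TPM and depleted libraries 28.5, 29.8 and 27.3 TPM, -1.40 ± 0.13 (adjusted p = 0.00268). The difference between the lines was thus of like size at both times, measured in separate libraries. Slc6a4 was higher in depleted cells at both times, by 0.63 ± 0.07 (SE, limma adjusted p = 0.00924) without and 0.74 ± 0.09 (adjusted p = 0.0083) with LPS. Slc17a5 was lower at both, at 11.5, 11.4 and 11.8 TPM against 16.8 and 17.2 TPM without LPS (log2 -0.51, limma adjusted p = 0.0382) and by 0.49 with LPS (adjusted p = 0.0453). Slc16a12 was higher without LPS by 0.96 (limma adjusted p = 0.0108) and Slc28a2 lower by 0.59 (adjusted p = 0.0242), neither called with LPS. With LPS Slc16a12 lay near the floor of the scale in both lines, where a difference could hardly be called. Slc28a2 lay below the 3 TPM level in every library without LPS.

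With LPS 2 members were called higher and 19 lower in depleted cells, 1.21% and 11.5%. Among all genes tested the shares were 0.89% and 4.38%, and among genes past the level rule 0.991% and 5.17%. The member median was -0.18, against -0.12 for all genes. This comparison rests on the lone control library with LPS, which every fit below holds. Such fits cannot show how far the calls depend on that library. The count of lower members was 9 to 17 when a library was left out, with 11 without depleted replicate 1 or 2 without LPS, 9 without replicate 3 without LPS, 12 without depleted replicate 2 with LPS and 10 without replicate 3 with LPS. With TMM scaling it was 10, beside 4 higher, where 668 of all genes were called against 722 in the main fit. With only the groups compared, 0 were higher and 1 lower, and 56 of all genes were called. With the left-out control library added no member and 0 of all genes were called. Of the 19 lower members 9, and of the 2 higher members 1, Slc6a4, were called in every such fit with a library left out and under the 3 other scalings.

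Those 9 lower members included Slc7a8, Slc6a8, Slc27a1, Slc2a8, Slc23a2, Slc25a37, Slc31a1 and Slc20a1. With the set number as a replicate block, only Slc7a8 and Slc31a1 of all lower members kept the call, and Slc6a4 lost its call. The creatine transporter Slc6a8 stood at 15.7 TPM in LPS-treated control cells against 5.70, 6.21 and 4.50 TPM in LPS-treated depleted cells (log2 -1.38 ± 0.19, SE, limma adjusted p = 0.011). Slc27a1, which brings in long-chain fatty acids, was at 129 TPM against 53.4, 63.2 and 46.1 TPM (-1.25 ± 0.20, adjusted p = 0.0156). The intracellular hexose transporter Slc2a8 was at 2.70 TPM against 0.723, 0.638 and 0.643 TPM (-1.15 ± 0.17, adjusted p = 0.012), although it stood at 6.71 and 6.01 TPM in control and 9.99, 8.73 and 7.33 TPM in depleted cells without LPS. Another 4, called higher with LPS in control cells, were lower in depleted cells with LPS: Slc23a2 by 0.88, Slc25a37 by 0.77, Slc31a1 by 0.72 and Slc20a1 by 0.68. The other 10 lower members, none of which kept its call in all those fits, were Slc16a10 (-0.85), Slc8b1 (-0.74), Slc9a4 (-0.63), Slc7a6 (-0.58), Slc35d1 (-0.53), Slc17a5 (-0.49), Slc38a1 (-0.47), Slc6a12 (-0.47), Slc3a2 (-0.46) and Slc44a1 (-0.42). Slc45a3, of a family of proton-linked sugar transporters, was the other higher member, at 5.34, 6.396 and 6.20 TPM against 2.95 TPM (0.82 ± 0.15, SE, limma adjusted p = 0.0266).

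**Figure D5:**
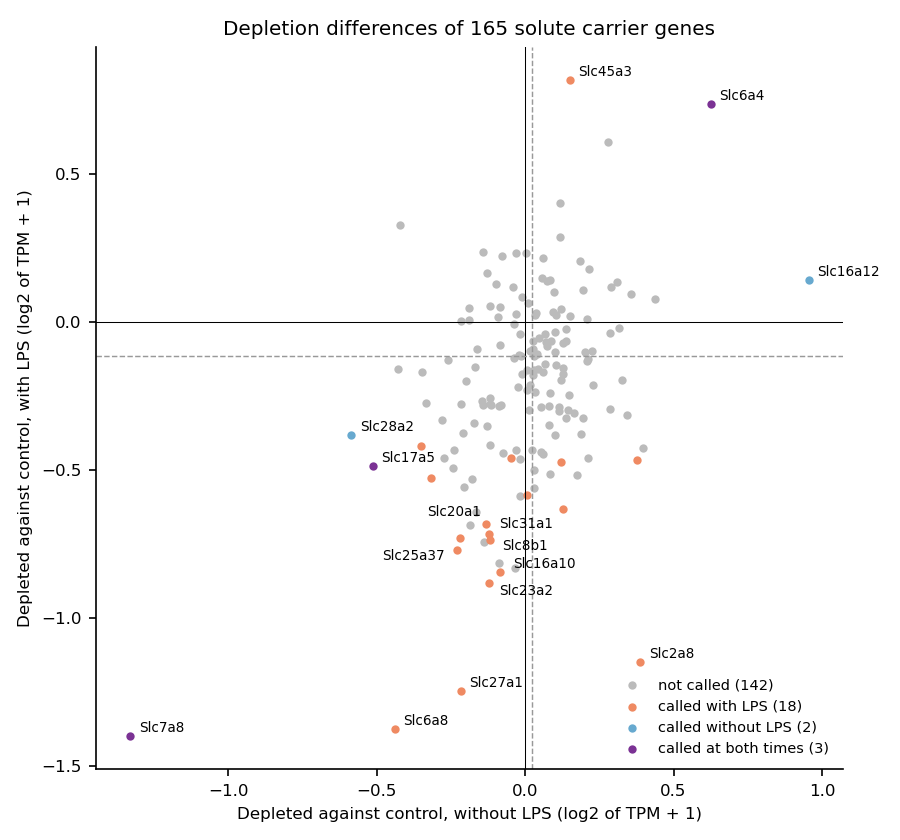
Difference between depleted and control cells for the 165 members without LPS (horizontal axis) and with LPS (vertical axis), as log2 of TPM + 1. Colours mark the time at which a member was called, and dashed lines are the medians of all genes tested (0.02 and -0.12). Slc7a8 lies at -1.33 and -1.40, Slc6a4 at 0.63 and 0.74, and most other called members lie below 0 with LPS only.

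Whether the LPS response itself differed between the lines was tested as a difference of the 2 changes. No member passed the limma threshold over all genes, where 31 of 13711 did (0.226%). The difference is signed, depleted minus control, so a negative value can be a deeper fall or a smaller rise in depleted cells. At an unadjusted limma p under 0.05, 2 of the 165 members had a positive and 38 a negative difference. Of the 13711 genes tested 392 had a positive and 1982 a negative difference. The median difference was -0.20 for members and -0.15 for all genes, so negative values were common among all genes too. The median of all genes turned to 0.01 with TMM scaling. With TMM scaling 1 higher and 2 lower members were called, and with no filter 4 lower, where 78 and 360 of all genes were called. With control replicate 2 without LPS added 0 members and 0 of all genes were called in either direction. The smallest adjusted p among members was that of Slc2a8, at -1.54 ± 0.21 (SE, limma adjusted p = 0.0503), whose LPS changes were -0.99 in control cells, a call lost with quantile normalization, and -2.53 in depleted cells. Next by adjusted p were Slc6a12 at -0.85 (adjusted p = 0.0598) and Slc23a2 at -0.76 (adjusted p = 0.0806). Slc7a7 had the greatest positive difference, 0.75 ± 0.15 (SE, limma adjusted p = 0.087).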

How the data were processed

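The authors deposited 1 table of log2(TPM + 1) with 52143 rows and 10 columns, 1 per library; 11 samples are labelled. Total RNA was made into stranded libraries and read in pairs of 100 bases, per the labels' protocols. The processing used kallisto 0.45.0 and GRCm38, per the submitters' processing notes; the annotation release and how transcripts were summed to genes are not given in the sources used here. TPM keep no read depth, so depth is unknown and no counting interval was given.

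From that table, 9 libraries in 4 groups were fitted with limma 3.58.1 (R 4.3.3) on log2(TPM + 1), with a mean-variance trend, for genes at 1 or more in at least 2 libraries. Fold changes on this scale understate those of low genes. The 5 comparisons were tested two-sided, with Benjamini-Hochberg adjustment over all genes and a threshold of 0.05. Ratios of mean TPM are given beside some. TMM factors were computed from TPM by the trimmed-mean formula, with no count test. The scripts were tested on simulated data. Members and lists were chosen with earlier results of these data known. Named members are the most abundant and the most changed called members of each of 8 substrate classes, the 10 largest called changes each way per comparison, those next to the level threshold, and the 3 largest of each related list. Alternatives changed the scaling, pseudocount, filter, variance model, libraries and set block. Gene positions are from GENCODE M21 and promoters from RefSeq GRCm38.p6. The motif search and tables used Python 3.11.15 with pandas 2.3.3, numpy 2.4.6 and scipy 1.17.1. Results of 1 member are not reported here by name.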

Additional observations from a re-analysis of the deposited data

How the results depend on the processing

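The counts of members called depended on the libraries and the scaling, and depth, which is unknown, sets no stated limit. With control replicate 2 without LPS added, LPS gave 4 higher and 1 lower in control cells and 9 and 28 in depleted cells, depletion and the difference of the responses gave 0 and 0, and Slc17a5 without LPS turned to 0.29. With only the groups compared, LPS in control cells gave 12 and 32, depletion without LPS 0 and 0, and depletion with LPS 0 and 1, in fits with fewer samples. TMM scaling gave 39 higher and 70 lower (LPS, control), 42 and 85 (LPS, depleted), 4 and 10 (depletion with LPS) and 1 and 2 (difference of the responses). Quantile normalization gave 38 and 76, 43 and 85, 4 and 5 for depletion without LPS, 11 lower for depletion with LPS and 1 lower for the difference. Rescaling TPM after removing mitochondrial genes and the top 100 genes by level gave 5 lower for depletion without LPS, and 1 higher and 2 lower for the difference. A pseudocount of 0.1 gave 1 higher for depletion without LPS and 1 lower for the difference. The stricter filter gave 1 higher for depletion with LPS and 1 lower for the difference, and no filter 4 lower for the difference. Leaving out 1 library at a time gave 21 to 23 higher and 85 to 100 lower (LPS, control), 20 to 21 and 121 to 126 (LPS, depleted), 0 to 2 and 1 to 3 (depletion without LPS), 1 to 3 and 9 to 17 (depletion with LPS), and 0 and 0 for the difference. Without the lone control library with LPS, the comparisons that need it have no value. The set numbers paired the samples weakly at most. Deviations of same-set libraries correlated at -0.0013 to 0.0972, and those of different sets at -0.0972 to 0.0362. These deviations were taken from group means, so the 2 control libraries without LPS mirror each other (0.0972 and -0.0972). The contrast between the ranges was thus partly fixed in advance. Each depleted library without LPS correlated best with its own number among depleted libraries with LPS (0.0617, 0.0715 and 0.097). Control replicate 3 without LPS did not, at -0.0013 with depleted replicate 3 with LPS and 0.0362 with replicate 2. With the set number as a replicate block, depletion gave 0 higher and 1 lower without LPS and 0 and 2 with LPS, and LPS gave 19 and 90 in control cells and 20 and 125 in depleted cells. Calls over all genes shifted too, as given beside the comparisons for some of these settings. The causes of these shifts were not tested.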
